A study of Mus musculus with 5 samples.

Results

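The cells described here are C1q-positive macrophages of the mouse spleen that carry Fcgr4 and Clec4a3. They were chosen by a rule on measured counts, applied to each droplet library. A barcode was kept with at least 500 genes, at least 1000 unique molecular identifiers (UMIs, each standing for 1 captured RNA molecule) and a mitochondrial share of at most 10%. It was then a member if C1qa, C1qb and C1qc together made at least 10 UMIs per 10000, and if Clec4a3 and Fcgr4 together had at least 2 UMIs and at least as many as Spic, Vcam1 and Cd5l. Cells with 5% or more of UMIs from S100a8 and S100a9, or with Cpa3, Ms4a2 and Fcer1a at 5 or more per 10000, were left out. The rule found 1527 members among 32240 kept cells, from 37035 barcodes.

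C1q is the first component of the classical complement pathway and in the spleen is made by macrophages. Fcgr4 encodes an activating receptor for the constant part of IgG, and Clec4a3 a C-type lectin receptor. Both are also known from patrolling monocytes. Spic, Vcam1 and Cd5l mark the red pulp macrophage, the spleen cell that clears old red blood cells and recycles their iron. Macrophages sense bacterial DNA rich in CpG through endosomal receptors such as TLR9 and answer with cytokines, acute phase proteins and interferon-induced genes.

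C57BL/6 mice had received, by vein, CMM cells that carry green fluorescent protein (GFP), a model of inv(16) acute myeloid leukaemia. Once leukaemic cells made up about 1% of the blood, PBS or CpG-STAT3dODN was given intravenously 3 times on alternate days; the latter joins a CpG oligonucleotide to a decoy DNA for the transcription factor STAT3. Spleen cells positive for both GFP and c-Kit were sorted for 10x 3′ single-cell sequencing, so macrophages were not the population aimed at. The comparison asks how the transcriptome of the captured macrophages differed between treatments. It rests on 1 PBS library and 4 treated libraries, Decoy 2, Decoy 3, Decoy 5 and Decoy 6. Whether the libraries are separate animals is not stated in the labels, and p-values therefore reflect no more than the spread among these 5 libraries. In the tests of genes that spread came from the 4 Decoy libraries alone.

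The label of inflammatory macrophages rests on Saa3 among the given markers, which most treated members and few PBS members carried; in each treated library a part of the members was low in it, and the inflammatory cytokine gene Il1b was higher in PBS. C1qb, Fcgr4 and Clec4a3 chose the cells, so their levels support nothing. Of the markers outside the rule, Csf1r, the receptor for the macrophage growth factor CSF1, stood at 383 CPM in PBS members and at 524, 589, 577 and 607 in Decoy 2, Decoy 3, Decoy 5 and Decoy 6. CPM (counts per 1e+06 UMIs) is here taken over the summed UMIs of the cells and scaled by the total alone. In all other kept cells of the same libraries Csf1r stood between 1.08 and 73.2 CPM. Saa3, which encodes an inducible serum amyloid A protein, stood at 499 CPM in PBS members and between 6156 and 7900 in Decoy members. A Saa3 UMI was found in 4 of the 27 PBS members, and 3 cells held 98.3% of the Saa3 UMIs. The macrophage genes Cd163 and Timd4 were at 0 in PBS members, and Cd163 was at 0 in Decoy 2.

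Few members lay at the limits of the rule, but most carried UMIs of the red pulp genes. Exactly 2 UMIs of Clec4a3 and Fcgr4 were found in 2 PBS members and in 10, 8, 12 and 5 Decoy members, while 2, 6, 8, 6 and 11 otherwise similar cells had 1 and stayed out. The lowest C1q level of a member was 20.7 UMIs per 10000 in PBS, against 10.5, 10.1, 10.1 and 10.2 for Decoy. The highest C1q level of a cell left out for it was 9.07 in PBS and 9.95, 9.67, 9.79 and 9.78. A UMI of Spic, Vcam1 or Cd5l was found in 20 PBS members and in 76, 357, 604 and 373 Decoy members. These genes equalled Clec4a3 and Fcgr4 in 1 PBS member and in 4, 5, 19 and 7 Decoy members. With 1 UMI more of them, 1, 2, 9, 22 and 7 cells stayed out. The mast cell limit kept out 5, 6, 19, 0 and 37 cells and the S100 limit 0, 3, 3, 8 and 5. These values follow from the rule and were not tested.

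The PBS members were few. Their 27 cells held 466806 UMIs, at a median of 13377 per cell, and the 3 deepest held 34.6% of them. Decoy members held between 2086080 and 16410677 UMIs per library, with medians of 19316.5 to 25644.5, and the 3 deepest cells held at most 10.4%. Scores for doublets, droplets with more than 1 cell, were high in 5 PBS members and in 4, 10, 60 and 10 Decoy members, which were kept. Pairs of libraries shared between 1 and 45 barcodes, and 1 barcode was a member in both Decoy 3 and Decoy 5. Kit, which encodes the sorted surface protein c-Kit, had 0 UMIs in PBS members and 8, 38, 21 and 21 in Decoy members. The Y-linked genes Ddx3y, Eif2s3y, Kdm5d and Uty together stood at 161 CPM in PBS members against 3.47 in the other PBS cells, and at 99.2, 132, 137 and 132 in Decoy members against 7.08, 88.0, 130 and 49.4.

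Members made up a larger share of each Decoy library than of PBS. They were 27 of 17219 kept cells in PBS, or 0.157% (Clopper-Pearson 95% interval 0.103% to 0.228%). In Decoy 2 they were 96 of 6252 cells (1.54%), in Decoy 3 378 of 1941 (19.5%), in Decoy 5 629 of 3607 (17.4%) and in Decoy 6 397 of 3221 (12.3%). The Decoy mean was 12.7% ± 8.02 (SD, n = 4), 12.5 points above PBS in a two-sided exact permutation test over libraries (p = 0.2, the smallest that 1 PBS library allows). Decoy 2 lay closest to PBS and below the other Decoy libraries; without it the mean was 16.4%. The sort for leukaemic cells stands behind these shares, so a change in the number of macrophages in the spleen and a change in the leukaemic cells around them cannot be told apart. Intervals cover counting error only.

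Among cells that passed the C1q, S100 and mast cell limits, 27 of 54 were members in PBS, and as many were not. The members' share was 66.7% in Decoy 2, 76.5% in Decoy 3, 71.9% in Decoy 5 and 79.4% in Decoy 6, a mean of 73.6% ± 5.57 (SD, n = 4) and 23.6 points above PBS (exact permutation p = 0.2). Depth moved with this split. The red pulp type cells, which passed the same limits with more Spic, Vcam1 and Cd5l than Clec4a3 and Fcgr4, had medians of 2679 UMIs in PBS and 2159 to 8053 in the Decoy libraries. Among C1q-positive cells with at least 5000 UMIs the members' share was 82.1% in PBS and 88.0% ± 3.02 (SD, n = 4) in Decoy, 5.87 points apart (exact permutation p = 0.2). The plot of shares shows both denominators.

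**Figure D1:**
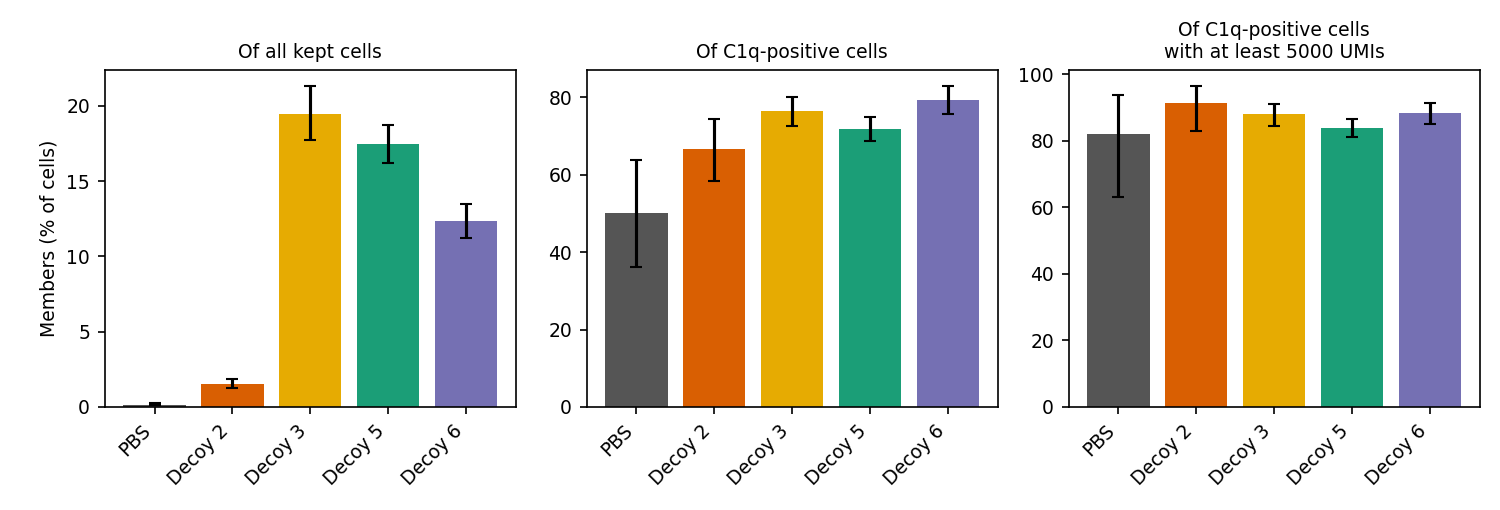
Share of members in each library (y axis, % of cells) among all kept cells, among C1q-positive cells and among C1q-positive cells with at least 5000 UMIs. Bars are single libraries with Clopper-Pearson 95% intervals; in the left panel the share is 0.157% in PBS and between 1.54% and 19.5% in Decoy, and are closest to each other in the right panel, at 82.1% in PBS and a Decoy mean of 88.0%.

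Between treatments, the genes called higher in Decoy members included Saa3 and Lcn2 of the acute phase, Cfb of complement, Hmox1 of haem breakdown and the lysosomal proteases Ctsb and Lgmn. Those called lower included 32 of 82 ribosomal protein genes, the cytokine gene Il1b and the receptor genes Clec4b1, Adgre4 and Klra17. Most members of the lists described below did not pass the test. UMIs of the members were summed per library and tested with edgeR's quasi-likelihood test, with Benjamini-Hochberg adjusted p under 0.05 as a call. Of 12356 genes tested, 98 (0.793%) were called higher in Decoy and 89 (0.72%) lower, 1.51% in either direction. At an unadjusted p under 0.05 there were 1786 genes of 12356, and DESeq2 called 445; counts of these kinds given for lists below stand beside that background. The median log2 fold change over all genes was 0.14, and 57.7% of genes had a positive value. Because PBS had 1 library, its spread was taken to equal that of the 4 Decoy libraries. The count rested on each library: it was 474 without Decoy 2, 2 without Decoy 3 (Saa3 and Ifi27l2a), 17 without Decoy 5 and 23 without Decoy 6. Below, a level is in CPM scaled by TMM, and fold changes are Decoy against PBS on the log2 scale with their SE.

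Saa3 (ENSMUSG00000040026, mm10 chromosome 7, 46711998 to 46715700, - strand) stood at 485 CPM in PBS and at 6230, 7073, 8039 and 6332 in Decoy 2, Decoy 3, Decoy 5 and Decoy 6. All 4 Decoy libraries lay within a narrow range far above PBS. Its log2 fold change was 3.84 ± 0.18 (edgeR adjusted p = 0.00106), and it stayed called with any 1 Decoy library left out (largest adjusted p = 0.0305). Over members thinned to 5000 UMIs, a Saa3 UMI was found in 2 of 23 PBS cells (8.70%) and in 73.0%, 77.0%, 83.2% and 70.4% of Decoy cells. At the same depth B cells, which should lack the gene, gave 0% in PBS and 1.29%, 8.40%, 8.22% and 6.58% in Decoy. Before thinning, the members' shares were 14.8% in PBS and 63.5% to 83.6% in Decoy, and those of B cells 0.485% and 4.22% to 19.6%, at B cell medians of 4078.5 to 10223 UMIs.

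Of 17 tested genes of the acute phase and inflammatory list, 2 rose and 1 fell, with a median log2 fold change of 1.28 against 0.14 over all genes. Lcn2, which encodes an iron-binding protein that starves bacteria of iron, had 3 UMIs in PBS members. It stood at 6.24 CPM there and at 240, 319, 348 and 258 in Decoy, 46.7-fold higher (counting interval 16.0 to 227, adjusted p = 0.00855 in edgeR's test). Il1b, which encodes the cytokine interleukin-1β, went the other way, from 399 CPM in PBS to 118, 99.9, 60.1 and 111 (log2 fold change -2.05 ± 0.32, adjusted p = 0.0353, edgeR). Every Decoy library lay below PBS for Il1b. Of its PBS UMIs, 3 cells held 58.3%. With 1 Decoy library left out, the largest adjusted p was 0.0574 for Lcn2 and 0.107 for Il1b. Lcn2 was not above the level in other kept cells: those stood at 249, 656, 1326 and 640 CPM in the Decoy libraries.

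Other complement genes were called too. Of 17 complement genes tested, 4 rose (Cfb, C4b, C5ar1 and Itgam) and none fell, with a median of 0.24. Cfb (chromosome 17, 34856374 to 34862518, - strand), which encodes factor B of the alternative pathway, stood at 116 CPM in PBS and at 554, 735, 712 and 689 in Decoy (log2 fold change 2.53 ± 0.21, edgeR adjusted p = 0.00855). C4b, which encodes complement C4, stood at 20.8 CPM and at 89.8, 117, 85.6 and 114 (2.30 ± 0.39, edgeR adjusted p = 0.0442). For both genes the Decoy libraries lay close together and above PBS. C4b has a near-identical copy, C4a, so how its reads were divided is uncertain. C5ar1, the receptor for the C5a fragment, had 1 UMI in PBS and 39.7 to 53.1 CPM in Decoy, a ratio of 22.1 (counting interval 3.96 to 873, edgeR adjusted p = 0.0420). Itgam, a subunit of complement receptor 3, rose from 49.9 to between 149 and 233 CPM (adjusted p = 0.0476, edgeR). Largest adjusted p with 1 Decoy library left out were 0.0574 for Cfb, 0.0939 for C4b, 0.0930 for C5ar1 and 0.118 for Itgam; without the 3 deepest PBS cells C4b (0.140), C5ar1 (0.0668) and Itgam (0.107) lost their calls.

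Of 6 Fc gamma receptor genes 1 rose: Fcgr2b, the inhibitory receptor, stood at 154 CPM in PBS and at 296, 275, 324 and 289 in Decoy (log2 fold change 0.94 ± 0.15, edgeR adjusted p = 0.0403). Without the 3 deepest PBS cells its adjusted p was 0.153, and with 1 Decoy library left out up to 0.0953. The value was 0.40 in Saa3-low members (adjusted p = 0.636, edgeR), and it turned to -0.18 without members carrying UMIs of B, T, NK or erythroid genes (0.778). B cells also express Fcgr2b, and B cell markers summed to 257 CPM in PBS members and to between 2390 and 17046 in Decoy members. Fcgr4 and Clec4a3, used by the rule, stood at 1726 and 898 CPM in PBS, and between 1374 and 1737 and between 720 and 785 in Decoy. Of 10 C-type lectin genes 1 fell and 0 rose. That gene, Clec4b1, stood at 310 CPM in PBS and at 101, 121, 106 and 118 in Decoy (-1.47 ± 0.14, edgeR adjusted p = 0.0128, up to 0.0602 with 1 Decoy library left out).

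**Figure D2:**
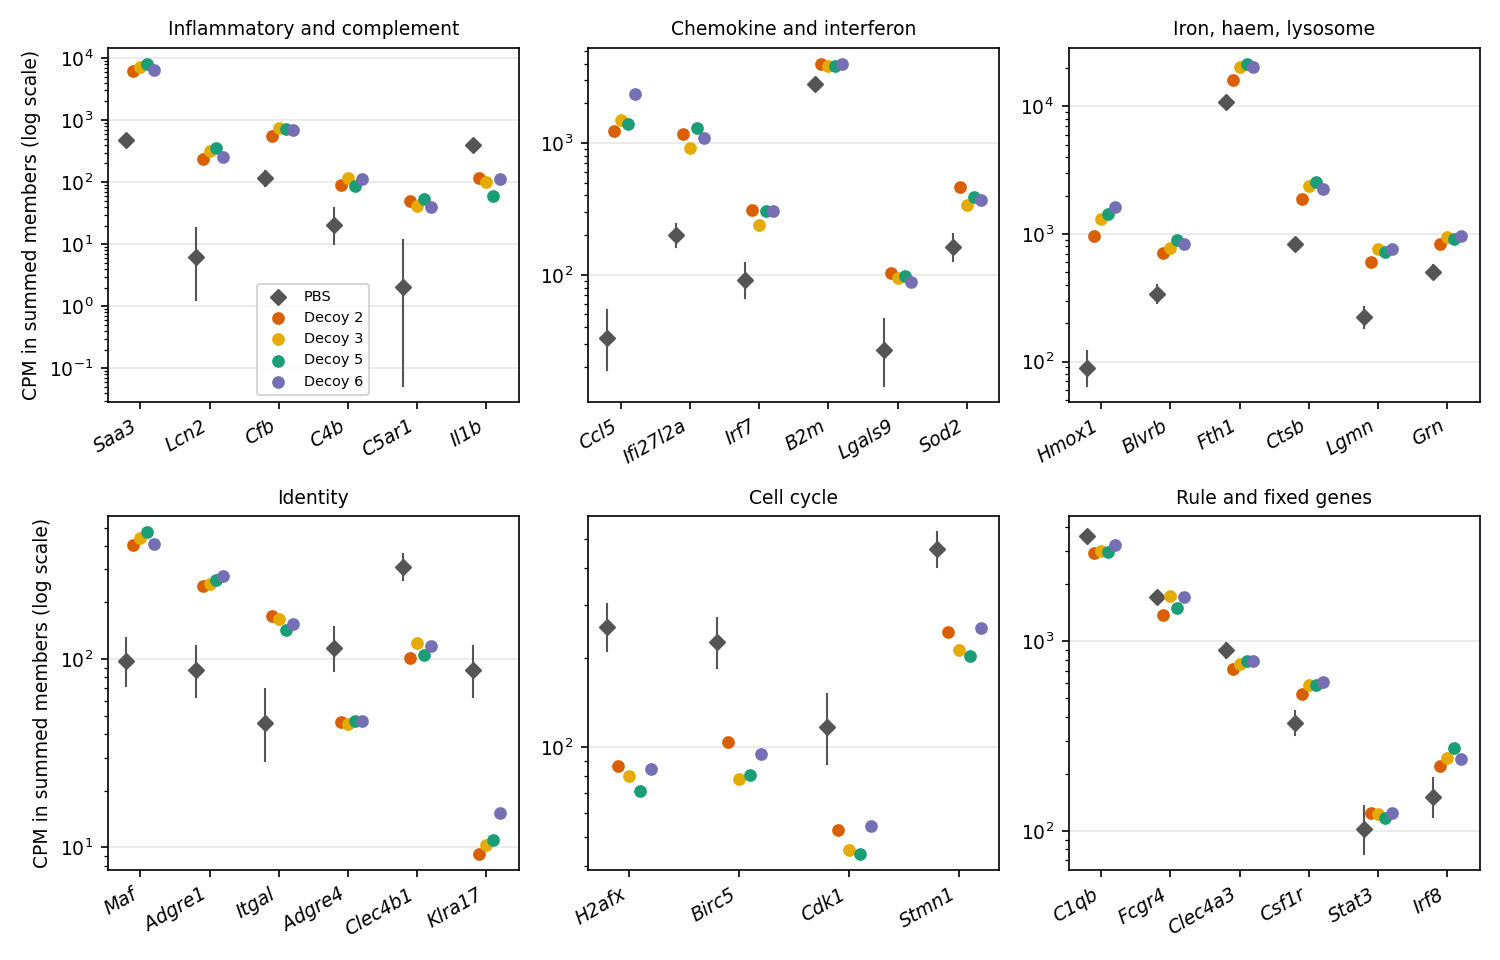
Levels of named genes in summed members (y axes, CPM on log scales, differing between panels), grouped by role. Diamonds are the single PBS library with its 95% counting interval, and dots are the 4 Decoy libraries; Saa3, Lcn2, Cfb, Ccl5 and Hmox1 lie far above PBS in every Decoy library, Il1b, Clec4b1 and Klra17 below it, and the rule genes near it.

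Of 19 tested chemokine and chemokine receptor genes, 2 rose and none fell, with a median of 1.39. Ccl5, a chemokine that attracts T cells and monocytes, had 16 UMIs in PBS, or 33.3 CPM, and stood at 1233, 1503, 1401 and 2369 CPM in Decoy. The lowest Decoy library was far above PBS, and the log2 fold change was 5.61 ± 0.52 (edgeR adjusted p = 0.0105, up to 0.0715 with 1 Decoy library left out). Ccl2, which attracts monocytes through Ccr2, had 0 UMIs in PBS and 21.4 to 28.6 CPM in Decoy, at least 4.14-fold higher against a floor of 3 counts in the PBS library (edgeR adjusted p = 0.0471); the lower end of its counting interval was 3.36-fold. Without the 3 deepest PBS cells its adjusted p was 0.0985. Genes of T cells moved with Ccl5, which T and NK cells also express: 8 of 8 T cell markers were at 0 in PBS members and summed to between 135 and 469 CPM in Decoy members. Their part in the result was not tested. After thinning, a Ccl5 UMI was found in 8.70% of PBS members, in 52.7% to 70.9% of Decoy members, and in 0% to 6.03% of B cells.

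All 30 tested genes of the type I interferon list had positive log2 fold changes, with a median of 1.07, and 2 were called; positive values numbered 26 of 30 without the 3 deepest PBS cells. Ifi27l2a (chromosome 12, 103442167 to 103443680, - strand), an interferon-induced gene of the mitochondrial and nuclear envelope, stood at 200 CPM in PBS and at 1171, 917, 1289 and 1099 in Decoy. Each Decoy library was several-fold above PBS (2.49 ± 0.22, edgeR adjusted p = 0.00855, up to 0.0305 with 1 Decoy library left out). Red pulp type cells had Ifi27l2a at 500 CPM in PBS and at 849 to 1074.5 in Decoy, scaled by the total alone. After thinning, an Ifi27l2a UMI was also found in 58.6% of PBS B cells and in 78.3% to 88.6% of Decoy B cells. Irf7, the transcription factor that amplifies type I interferon, stood at 91.5 CPM in PBS and at 310, 240, 305 and 306 in Decoy (1.66 ± 0.22, edgeR adjusted p = 0.0233, up to 0.0818). With each member weighted equally, its difference was 0.45 on the log2(mean CPM + 10) scale and was not called (limma adjusted p = 0.0990). Other members of the list were not called, such as Isg15, a ubiquitin-like protein (39.5 CPM in PBS, 57.8 to 190 in Decoy, adjusted p = 0.441 in edgeR's test).

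Antigen presentation genes were taken by class. All 15 tested MHC class I genes had positive values, with a median of 0.48, and 1 was called. B2m, the light chain of MHC class I, stood at 2808 CPM in PBS and at 3962, 3861, 3846 and 3987 in Decoy (0.48 ± 0.07, edgeR adjusted p = 0.0324, up to 0.132 with 1 Decoy library left out, 0.2 without the 3 deepest PBS cells and 0.109 by limma with each member weighted equally). Of 10 MHC class II genes, edgeR called 0, 0 had an unadjusted p under 0.05, and DESeq2 called 0. Cd74, the invariant chain, stood at 5195 CPM in PBS, inside the Decoy range of 4359 to 5287 (-0.10 ± 0.12, edgeR adjusted p = 0.740), and H2-Aa at 1851, inside 1341 to 1892. Without members carrying UMIs of B, T, NK or erythroid genes, Cd74 was called lower, at -1.06 (edgeR adjusted p = 0.0189). H2-Aa had -1.07 there without a call (edgeR adjusted p = 0.0568). Of 19 interferon gamma genes edgeR called 0, 8 had an unadjusted p under 0.05 and DESeq2 called 2. Their median was 0.75, and Cxcl9 ranged from 250 to 1208 CPM between Decoy libraries, around 628 in PBS.

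Promoter windows are shown for the 3 called genes with a match to an interferon-stimulated response element, the site bound by interferon regulatory factors. RefSeq windows (GRCm38.p6, 250 bases before to 50 after the start of transcription) were found for 15 of the 29 named genes called higher. The element, searched on both strands as TTTC, any 2 bases and TTTC, was in 3 of 15 and in 3.49% of all 27025 windows. The STAT palindrome TTCNNNGAA was in 1 of 15 (Sod2) and in 8.47% of all windows. The kappa B motif, GGG, any 2 bases and TTTCC, was in 1 of 15 (B2m, next to its response element) and in 1.62% of all, and the antioxidant motif TGACNNNGC in 1 of 15 (Irf7) and in 12.5% of all. A match describes letters and is not a measured site. Capitals mark the response elements, which begin at -125 in Saa3, at -139 in B2m and at -55 and 16 in Lgals9, counted from the start of transcription; in B2m the second run of capitals, at -126, is the kappa B motif.
Saa3, chr7:46715627-46715926, - strand: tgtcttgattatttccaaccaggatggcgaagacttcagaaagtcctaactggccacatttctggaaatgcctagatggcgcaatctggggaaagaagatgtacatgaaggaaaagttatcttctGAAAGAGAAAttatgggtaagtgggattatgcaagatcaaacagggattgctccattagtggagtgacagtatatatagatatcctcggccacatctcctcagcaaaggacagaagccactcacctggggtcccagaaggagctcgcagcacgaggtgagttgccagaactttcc
B2m, chr2:122147437-122147736, + strand: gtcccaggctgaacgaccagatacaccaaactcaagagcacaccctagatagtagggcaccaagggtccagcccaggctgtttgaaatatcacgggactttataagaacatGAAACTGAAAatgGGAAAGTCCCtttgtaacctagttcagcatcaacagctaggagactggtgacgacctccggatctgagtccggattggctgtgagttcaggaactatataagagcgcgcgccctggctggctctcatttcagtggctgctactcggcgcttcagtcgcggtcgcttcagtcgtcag
Lgals9, chr11:78984875-78985174, - strand: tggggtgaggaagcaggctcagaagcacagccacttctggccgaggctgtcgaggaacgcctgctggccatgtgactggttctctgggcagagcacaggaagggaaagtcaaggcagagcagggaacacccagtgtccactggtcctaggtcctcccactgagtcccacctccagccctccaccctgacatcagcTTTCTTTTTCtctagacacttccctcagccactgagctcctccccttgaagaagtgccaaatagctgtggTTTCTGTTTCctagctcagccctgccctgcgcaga

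Of 12 tested genes that handle haem and iron, 4 were called higher and none lower, with a median of 0.88. Hmox1 (chromosome 8, 75093621 to 75100589, + strand), the enzyme that breaks haem down, stood at 89.4 CPM in PBS and at 971, 1312, 1432 and 1633 in Decoy. All Decoy libraries lay far above PBS, and the log2 fold change was 3.90 ± 0.34 (edgeR adjusted p = 0.00855, up to 0.0627 with 1 Decoy library left out). Blvrb, which reduces biliverdin made by Hmox1, stood at 339 CPM and at 709, 772, 902 and 830 (1.25 ± 0.16, edgeR adjusted p = 0.0233, up to 0.0838). Fth1, the ferritin heavy chain that stores iron, and Slc11a1, which pumps iron out of the phagosome, had log2 fold changes of 0.86 ± 0.15 and 0.80 ± 0.14 (edgeR adjusted p = 0.0478 and 0.0476, up to 0.126 and 0.119); both calls were lost without the 3 deepest PBS cells (0.0698 and 0.0616). Slc40a1, the iron exporter ferroportin, stood at 27.0 CPM in PBS and at 110, 344, 368 and 386 in Decoy without a call (adjusted p = 0.127, edgeR). After thinning, an Hmox1 UMI was found in 34.8% of PBS members, 56.8% to 84.6% of Decoy members and 0% to 10.8% of B cells.

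Of 21 lysosomal genes tested, 5 rose and none fell, 20 had positive values and the median was 0.58. Ctsb, the protease cathepsin B, stood at 830 CPM in PBS and at 1865, 2380, 2557 and 2261 in Decoy (1.45 ± 0.18, edgeR adjusted p = 0.0218). Lgmn, an asparaginyl endopeptidase that trims antigens, stood at 223 CPM and at 602, 767, 722 and 767 (1.68 ± 0.18, edgeR adjusted p = 0.0186). For both enzymes the Decoy libraries lay well above PBS and Decoy 2 was the lowest of them. Grn, which encodes progranulin, and Psap, a cofactor of sphingolipid breakdown, had log2 fold changes of 0.86 and 0.86. With 1 Decoy library left out the adjusted p reached 0.0838 for Ctsb, 0.0742 for Lgmn and 0.101 for Grn. Without the 3 deepest PBS cells Grn lost its call (0.106).

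Of 16 genes of macrophage identity tested, 3 rose (Maf, Adgre1 and Itgam) and none fell, with a median of 0.65. Maf (chromosome 8, 115682942 to 115707794, - strand), a transcription factor of mature macrophages, stood at 97.8 CPM in PBS and at 404, 440, 472 and 409 in Decoy (2.14 ± 0.17, edgeR adjusted p = 0.00855, up to 0.0574 with 1 Decoy library left out). Adgre1, which encodes the F4/80 antigen, stood at 87.4 CPM and at 245, 252, 265 and 277 (1.57 ± 0.16, edgeR adjusted p = 0.0130, up to 0.0742). Both genes had a tight range over the Decoy libraries. Of 12 red pulp macrophage genes 2 rose, Hmox1 and Adgre1, and the median was 0.89. The scavenger receptor gene Msr1 stood at 18.7 and at 76.7 to 100 CPM (2.20 ± 0.34, edgeR adjusted p = 0.0346, up to 0.0838; 0.0804 without the 3 deepest PBS cells). Msr1 was 1 of 15 lipid handling genes called. Apoe, which carries lipids out of cells, stood at 1013 CPM in PBS and at 708, 424, 367 and 351 in Decoy (-1.14 ± 0.34, edgeR adjusted p = 0.181). Its direction turned in Saa3-low members (0.46) and without cells of high doublet score (0.72). Without members carrying UMIs of B, T, NK or erythroid genes Apoe was called lower, at -2.55 (edgeR adjusted p = 0.0215). The 3 Saa3-high PBS cells had Apoe at 6732 CPM in their sum.

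Patrolling monocyte genes moved in both directions, 1 higher and 1 lower of 18 tested. Itgal, an integrin subunit of adhesion to vessel walls, rose from 45.8 CPM to 169, 164, 144 and 154 (1.78 ± 0.20, edgeR adjusted p = 0.0191, up to 0.0742 with 1 Decoy library left out; 0.0514 without the 3 deepest PBS cells). Adgre4, an adhesion receptor related to F4/80, fell from 114 CPM to 46.1, 45.3, 47.0 and 47.2 (-1.30 ± 0.14, edgeR adjusted p = 0.0188, up to 0.0742). Klra17, a lectin-like receptor of the Ly49 family, fell from 87.4 CPM to 9.22, 10.3, 10.9 and 15.2 (-2.89 ± 0.34, edgeR adjusted p = 0.0191, up to 0.0771), and Batf3, a transcription factor best known from dendritic cells, from 216 to between 92.5 and 106. Thus PBS members stood above every Decoy library for Klra17, Batf3, Adgre4 and Clec4b1. Nr4a1, the transcription factor that patrolling monocytes need, stood at 37.4 CPM in PBS, inside the Decoy range of 35.9 to 42.7. Cx3cr1, their chemokine receptor, stood at 39.5 and at 46.6 to 70.8 (edgeR adjusted p = 0.709). Ly6c2, the classical monocyte marker, stood at 208 and at 746, 508, 745 and 485 (1.58 ± 0.32, edgeR adjusted p = 0.0679; 0.0307 without the 3 deepest PBS cells). Of 12 classical monocyte genes edgeR called 0, 4 had an unadjusted p under 0.05 and DESeq2 called 2.

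Few genes around STAT3 and TLR9, the targets of the treatment, were called. Stat3 itself stood at 102 CPM in PBS and at 124, 123, 117 and 124 in Decoy (0.26 ± 0.14, edgeR adjusted p = 0.609). Its feedback target Socs3 stood at 81.1 CPM, inside the Decoy range of 77.8 to 93.5. Of 18 STAT3 target genes edgeR called 0, 2 had an unadjusted p under 0.05 and DESeq2 called 1; their median of 0.11 was near that of all genes. Tlr9 had 1 UMI in PBS and 1.61 to 3.4 CPM in Decoy, a ratio of 1.11 (counting interval 0.2 to 44.0), so a difference was not detectable at this depth. Of 14 TLR9 pathway genes 1 rose, Irf7, and of 19 NF-kB response genes 1, Sod2, which encodes a mitochondrial superoxide dismutase (1.26 ± 0.21, edgeR adjusted p = 0.0411, up to 0.107 with 1 Decoy library left out; 0.0690 without the 3 deepest PBS cells). Irf8, a transcription factor of monocyte development, stood at 152 CPM and at 221, 242, 274 and 240 (0.69 ± 0.17, edgeR adjusted p = 0.111). Cd274, the checkpoint ligand PD-L1, stood at 72.8 CPM and at 133, 116, 121 and 121 (0.75 ± 0.17, edgeR adjusted p = 0.0906). Of 11 checkpoint genes 1 rose, Lgals9, a galectin, from 27.0 CPM to between 88.0 and 103 (1.82 ± 0.23, edgeR adjusted p = 0.0218, up to 0.0810). Of 15 DNA methylation and chromatin genes edgeR called 0, 2 had an unadjusted p under 0.05 and DESeq2 called 0.

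**Figure D3:**
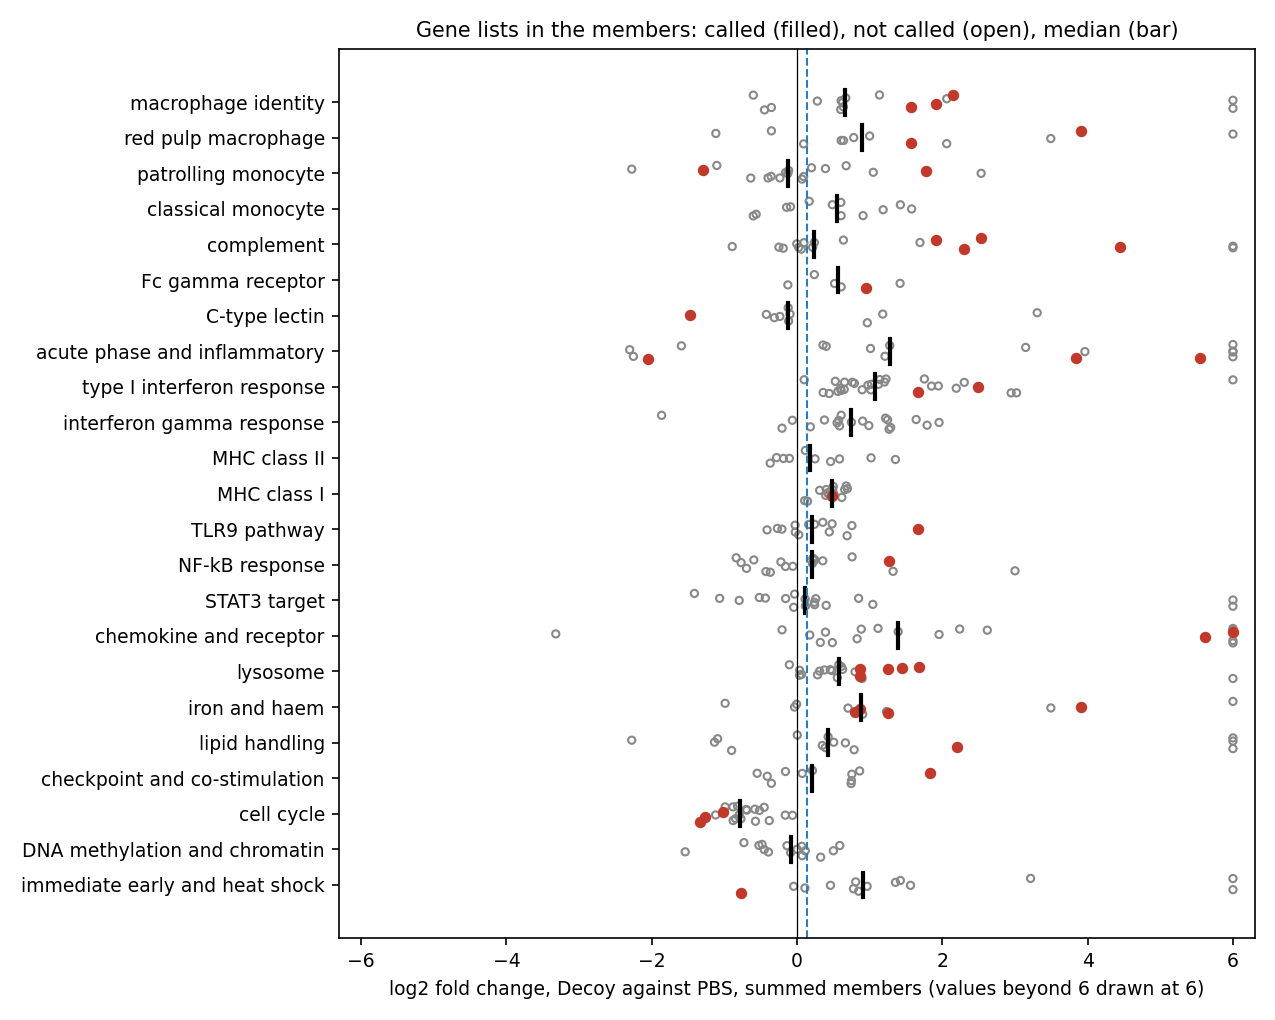
Log2 fold changes of list members, Decoy against PBS, in summed members (x axis; values beyond 6 drawn at 6), 1 list per line. Filled points were called, open points were not, bars are list medians and the dashed line is the median of all genes at 0.14; the 30 type I interferon genes lie on the positive side and the 20 cell cycle genes on the negative side.

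Cell cycle genes were lower in summed Decoy members. Of 20 tested, 3 fell, 20 had negative values and the median was -0.78. Birc5, which encodes the mitotic protein survivin, stood at 225 CPM in PBS and at 104, 78.2, 80.9 and 94.8 in Decoy (-1.34 ± 0.19, edgeR adjusted p = 0.0281), and Cdk1, the mitotic kinase, and Stmn1, a microtubule regulator, had -1.26 and -1.02. These calls rested on few cells: without the 3 deepest PBS cells 0 of 20 were called and the median was -0.14, with adjusted p of 0.812 for Birc5, 0.866 for Cdk1 and 0.260 for Stmn1 and a positive value of 0.21 for Cdk1. The calls of the histone gene H2afx (0.193), the carbonic anhydrase gene Car2 (0.859) and the chaperone gene Hsp90aa1 (0.755) were lost with those cells too. Granulocyte-monocyte progenitor markers moved with this pattern, at 1219 CPM in PBS members and 59.0 to 590 in Decoy members in sum over 5 genes. In the other kept cells they summed to 52.8 CPM in PBS and to 245, 1305, 1525 and 555 in Decoy. PBS members thus stood far above the cells around them for these markers, and every Decoy library's members stood below. The part of these markers in the result was not tested. Cytosolic ribosomal protein genes were lower as a group: 32 of 82 fell, 0 rose, and the median was -0.39. Without the 3 deepest PBS cells 13 of 82 were called lower and the median was -0.35. Rpl10, a protein of the large subunit, stood at 3600 CPM in PBS and at 1807, 1927, 1857 and 1747 (-0.97 ± 0.08). In the other kept cells it stood at 4094 CPM in PBS and at 2905, 2601, 2298 and 2698 in Decoy, scaled by the total alone. The other ribosomal genes called lower also stood lower in these Decoy cells, except Rpl32, Rpl23 and Rplp1 in Decoy 2. A lower level was thus not particular to the members, and the difference in the other cells was not tested.

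Some genes called higher did not stand above the other kept cells. Of the 98 genes called higher, 85 stood above the other kept cells of the same library in all 4 Decoy libraries, and 13 did not, among them Lcn2, S100a8, Lgals9, Igkc and Ighg2c. The immunoglobulin genes Igkc and Ighg2c had 4 UMIs each in PBS members and 2326 to 13556 and 900 to 2190 CPM in Decoy members. The Decoy UMIs of Igkc were concentrated: 3 cells held 98.5% in Decoy 2 and 25.3% to 49.1% elsewhere, and the highest cell had 4065 per 10000. B cell markers summed to 257 CPM in PBS members and to 2390, 17046, 13635 and 8112 in Decoy members, with Cd79a, Ms4a1 and Pax5 at 0 in PBS and Decoy 2. Neutrophil markers summed to 87.8 CPM in PBS and 871, 1183, 2268 and 1061 in Decoy, led by the alarmin gene S100a8, which the rule limits. Erythroid markers summed to 6797 CPM in PBS members, inside the Decoy range of 269 to 7172. Leukaemic and mast cell markers, also limited by the rule, summed to 135 CPM and to 80.5, 26.2, 5.36 and 42.7. Without members that carry 2 or more UMIs of B, T, NK or erythroid genes, 33 genes were called, 9 higher and 24 lower, and 23 of them were among the 187. That setting left 13 of the 27 PBS members and 75, 248, 438 and 264 Decoy members. Saa3, Ccl5, Lcn2, Hmox1, Maf, Ifi27l2a, Lgmn and Il1b kept their calls and direction there, with log2 fold changes of 2.41, 7.90, 5.47, 4.84, 2.33, 1.66, 1.94 and -2.51, while the other 34 of 42 named calls were lost, Cfb among them (1.67, edgeR adjusted p = 0.0844). Of the lost calls, 31 kept their direction. Whether they were lost through the fewer PBS cells or the cells left out was not tested.

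Members ranged from cells with much Saa3 to cells with none, as the plot of single cells shows. The division used here is a range on a per-cell value, set after the data were seen at 5 Saa3 UMIs per 10000. In PBS 3 of 27 members (11.1%, Clopper-Pearson 95% interval 2.35% to 29.2%) lay at or above it. In Decoy 2 55 of 96 did (57.3%), in Decoy 3 259 of 378 (68.5%), in Decoy 5 467 of 629 (74.2%) and in Decoy 6 249 of 397 (62.7%). The Decoy mean was 65.7% ± 7.32 (SD, n = 4), 54.6 points above PBS (exact permutation p = 0.2, the smallest possible). Within a factor of 2 of the limit lay 0, 9, 34, 34 and 29 cells. Among members with at least 5000 UMIs the shares were 3 of 23 in PBS and 71.4% ± 5.58 in Decoy (SD, n = 4).

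**Figure D4:**
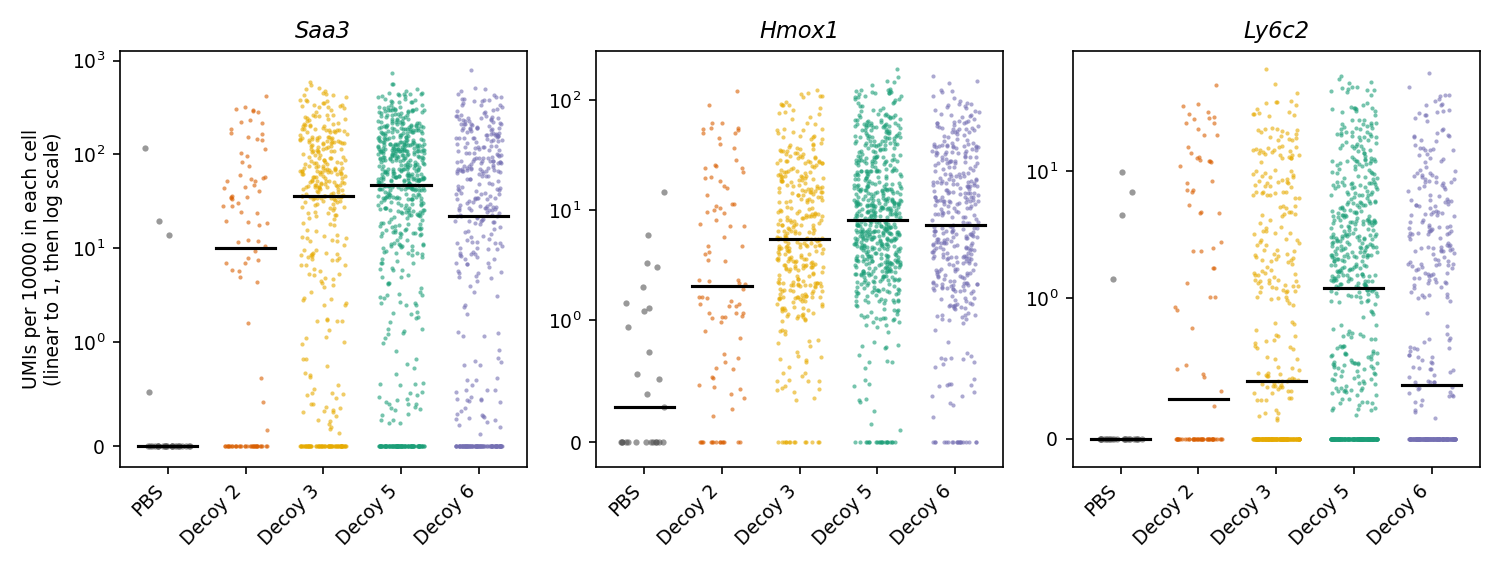
UMIs of Saa3, Hmox1 and Ly6c2 per 10000 in each member (y axes, linear to 1 and logarithmic above), by library. Points are cells and black lines are medians; the Saa3 median is 0 in PBS and between 9.94 and 47.4 in Decoy, and the Hmox1 median 0.29 in PBS and between 2.03 and 8.15 in Decoy.

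Saa3-low and Saa3-high Decoy members differed in other genes, given as medians over cells with no test. Fcgr4, a rule gene, was at 18.9, 26.7, 20.6 and 22.4 per 10000 in Saa3-low cells of Decoy 2, Decoy 3, Decoy 5 and Decoy 6, and at 11.5, 13.8, 13 and 14.9 in Saa3-high cells. Clec4b1 was at 0.63, 1.70, 1.72 and 1.45 in Saa3-low cells and at 0, 0.33, 0.36 and 0.33 in Saa3-high cells. Clec4b1 was thus higher in the Saa3-low cells of every Decoy library. Fcgr4 was too, but the rule sets a minimum of Clec4a3 and Fcgr4 UMIs, so its values support nothing. The other rule gene, Clec4a3, was at 6.14, 8.42, 8.39 and 8.39 in Saa3-low cells. In Saa3-high cells it was at 6.71, 8.08, 8.77 and 8.61. The monocyte gene Ly6c2 was at 0 in Saa3-low cells and at 2.74, 1.27, 2.14 and 1.82 in Saa3-high cells, and Ccl5 at 0, 1.13, 0.58 and 0.70 against 5.42, 8.33, 6.74 and 20.4. Itgax, the integrin CD11c, was at 0, 3.65, 2.79 and 3.07 in Saa3-low cells against 0.22, 0.85, 0.61 and 1.02; in summed counts it was higher in Saa3-low cells of every Decoy library, at 337 against 108 CPM in Decoy 2. Depth differed as well, with medians of 5916 UMIs in Saa3-low and 25812 in Saa3-high cells of Decoy 2, and 16989 to 24106 against 21694 to 26506 in the other Decoy libraries. The 24 Saa3-low PBS cells had Clec4b1 at a median of 4.17 and Itgax at 1.5 per 10000.

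Since PBS members were mostly Saa3-low, the treatments were also compared among Saa3-low members alone, a comparison added after the data were seen. It used 24 PBS cells with 409018 UMIs and 41, 119, 162 and 148 Decoy cells. Of 10767 genes tested by edgeR, 52 (0.483%) were called higher in Decoy and 28 (0.26%) lower, 0.743% in either direction, and 50 of these were also called in all members. Hmox1 stood at 100 CPM in PBS and at 838, 1296, 1991 and 1577 in Decoy, scaled by the total alone (log2 fold change 3.86, edgeR adjusted p = 0.0176). Cfb stood at 75.8 CPM and at 425, 817, 615 and 570 (3.03, edgeR adjusted p = 0.0176), and Ifi27l2a at 125 and at 739, 696, 903 and 815 (2.69, edgeR adjusted p = 0.00465). All 3 remained several-fold higher in each Decoy library within this range.

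Lgmn, Ctsb, C4b, Maf, Adgre1, Itgal, Irf7 and Blvrb were called higher among Saa3-low members too, with log2 fold changes of 1.88, 1.38, 2.94, 1.49, 1.23, 2.66, 1.32 and 0.97. Of the genes that were lower, H2afx (-1.89, edgeR adjusted p = 0.0232) and Ccdc88a, which encodes an actin-binding protein (-1.28, edgeR adjusted p = 0.0377), were called, while Clec4b1 (-0.73, 0.114), Klra17 (-2.20, 0.0650), Adgre4 (-1.09, 0.0637) and Il1b (-1.86, 0.0788) were not. Ly6c2 had a log2 fold change of 0.13 there (edgeR adjusted p = 0.952) and Ccl5 of 4.35 (0.0950). Of the ribosomal protein genes 2 of 81 were called lower, at a median of -0.42.

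**Figure D5:**
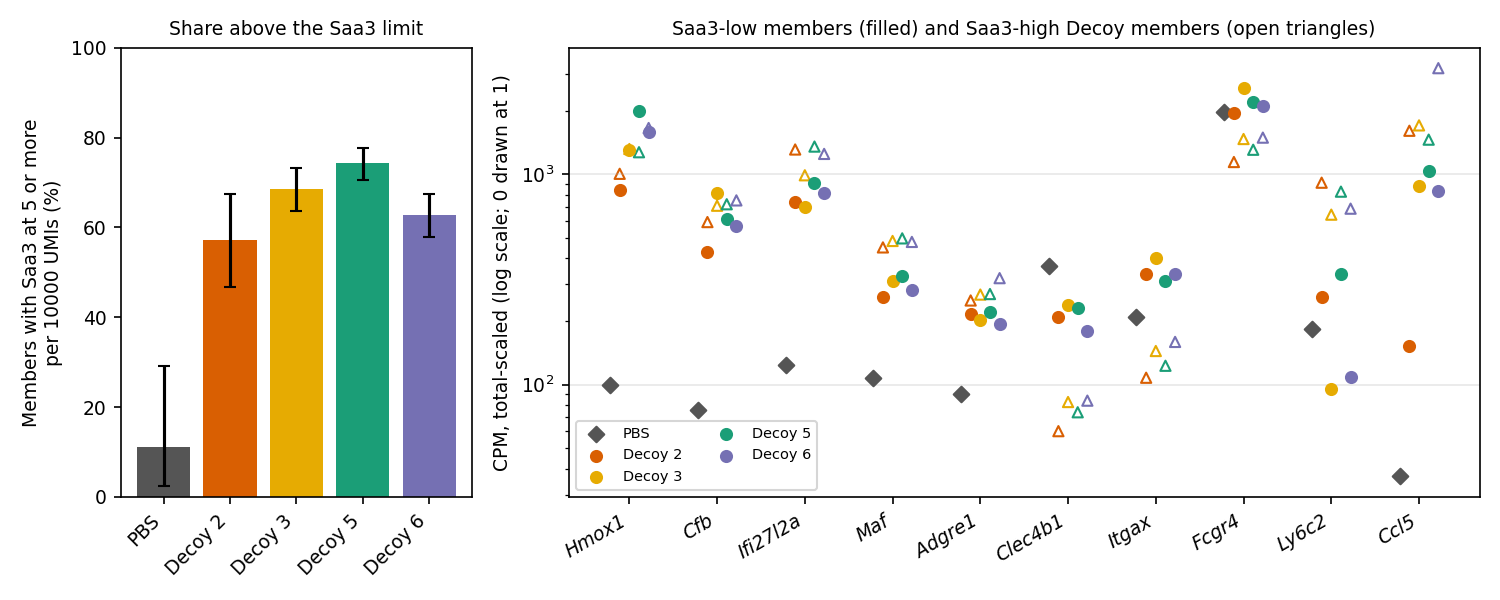
Left, share of members with Saa3 at 5 or more UMIs per 10000 (y axis, %), with Clopper-Pearson 95% intervals, 11.1% in PBS and 57.3% to 74.2% in Decoy. Right, levels of 10 genes (y axis, CPM scaled by the total, log scale) in Saa3-low members (filled, diamonds PBS, circles Decoy) and Saa3-high Decoy members (open triangles). Hmox1, Cfb and Ifi27l2a of Saa3-low Decoy members lie above PBS, and Clec4b1 lies lower in Saa3-high Decoy members. Fcgr4 lies lower there too but is a rule gene.

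Red pulp type cells of the same libraries, 442 in all, served to test whether the treatment difference itself differed between kinds of macrophage. They differ from members in Spic, Vcam1, Cd5l, Fcgr4 and Clec4a3 by the rule. Their deepest cell held 28678 of 96006 UMIs in PBS and 85322 of 296780 in Decoy 2. They carried RNA of other cells too, here in CPM scaled by the total alone. Igkc stood at 198 in PBS and at 20.2, 15047, 29464 and 37581 in Decoy. The haemoglobin gene Hba-a1 stood at 4416 in PBS and at 12831, 102, 1313 and 2653 in Decoy. The part of such RNA in the differences was not tested. A fit with library as a block and 19 PBS and 31, 94, 219 and 79 Decoy red pulp type cells tested 10878 genes; edgeR called a higher Decoy effect in members for 7 (0.0644%) and a lower one for 11 (0.101%), 0.165% in either direction. Hmox1 stood at 691 CPM in red pulp type cells of PBS and at 1880, 1605, 2419 and 2287 in Decoy, so its difference was larger in members, by 2.29 ± 0.28 on the log2 scale (edgeR adjusted p = 0.0144). Cfb stood at 486 CPM in red pulp type cells of PBS and at 577, 719, 695 and 673 in Decoy, a difference smaller than in members by 2.04 ± 0.21 (edgeR adjusted p = 0.0102). PBS members thus lay below PBS red pulp type cells for both genes, while Decoy values of the 2 kinds lay closer together. Il18, a cytokine of the interleukin-1 family, and Fabp5, a fatty acid carrier, both named after their values were seen, had differences of 2.66 and 2.53 (edgeR adjusted p = 0.0178 and 0.0144): in red pulp type cells Il18 stood at 632 CPM in PBS and 218 to 264 in Decoy, in members at 47.0 and 88.4 to 120. The PBS red pulp type cells held 96006 UMIs, and 5 genes were called without Decoy 3 and 103 without Decoy 2.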

How the data were processed

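Gene expression was measured in 5 droplet libraries, 1 PBS and 4 Decoy, grouped by the labels. The deposited matrices hold UMI counts per gene and barcode for 32285 genes, with no normalization, written by Cell Ranger 5.0.0 per the file headers; the submitters' processing notes name Cell Ranger 3.1, Seurat 4, DESeq2 and mm10, and the gene annotation is not given in the sources used here. A removal of doublets is not stated. Gene positions come from GENCODE vM21.

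Cells were chosen by the rule in the text, and their counts were summed per library. The sums were tested with edgeR 4.0.16 in R 4.3.3 (filterByExpr, TMM scaling, quasi-likelihood test, Benjamini-Hochberg adjusted p under 0.05), with limma 3.58.1 and DESeq2 1.42.0 as alternatives. Members and red pulp type cells were compared in a fit with library as a block. Only the Decoy libraries gave an estimate of spread. Shares were compared with exact permutation tests in scipy 1.17.1. Doublet scores came from scrublet (scanpy 1.11.5; expected doublets, 0.8% for every 1000 barcodes) and removed no member in the results given. For shares of cells with a UMI, cells were thinned to 5000 UMIs, and 4 PBS and 22, 34, 56 and 36 Decoy members were too shallow. B cells were kept cells with at least 3 UMIs of Cd79a and Ms4a1 together and none of Cd3e and Cd3d. They also had C1q under 10 per 10000 UMIs, and Cpa3, Ms4a2 and Fcer1a under 5 per 10000. The C1q limit leaves out B cells with the most C1q RNA, so their shares can be too low as a background. The fit for the comparison of members was tested on simulated data over 12356 genes, in which only genes of higher level were changed. It recovered 94% of those raised 4-fold, 18% of those raised 2-fold, 60% of those lowered 4-fold and 16% of those lowered 2-fold. There was 1 false call among 95. Recovery of genes of low level was not tested. Since spread could be estimated from the Decoy libraries alone, this count cannot tell how many calls are false if the PBS spread differed.

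The members and gene lists were chosen with earlier results of these data known. Named genes were 16 fixed ones, for each direction the 8 called genes that changed most (a mean of at least 20 CPM, every Decoy library on 1 side of PBS), and up to 4 called genes of each list, or the 2 most abundant where none was called. Other genes were named as examples after their values were seen. Alternatives changed the scaling, the test, the filters on genes and cells, the doublets, free RNA and the libraries used. Single values of some genes are not reported here, although the counts over lists include them.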

Additional observations from a re-analysis of the deposited data

Results flagged for a closer look

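Among 67 values tested for a single library far from the others within the 4 Decoy libraries, 6 stood apart; chance gives about 1 in 20. Decoy 2 was high for Cx3cr1 (70.8 CPM), for Plac8, a gene of monocytes and neutrophils (2702 CPM), for the interferon gamma chemokine gene Cxcl9 (1208 CPM), and for Iigp1, an interferon-induced GTPase (735 CPM). Decoy 3 was low for Irf7 at 240 CPM. Decoy 5 was low for Stat3 at 117 CPM. Decoy 2 also had the fewest Decoy members, 96.

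The Decoy effect differed between members and red pulp type cells for 4 named genes in edgeR's test with Benjamini-Hochberg adjustment. The log2 difference, members minus red pulp type cells, was 2.29 for Hmox1 (adjusted p = 0.0144), 2.04 for Cfb (adjusted p = 0.0102), -2.43 for Birc5 (adjusted p = 0.0475) and -2.23 for Fcgr4 (adjusted p = 0.00316). Fcgr4 is a gene of the rule that separates these cells, so its value supports nothing. Birc5 was not called with RLE scaling or without Decoy 3, Decoy 5 or Decoy 6, and within members its own fold change of -1.34 became -0.18 without the 3 deepest PBS cells (edgeR adjusted p = 0.812). Hmox1 and Cfb were called with RLE scaling and without Decoy 3, Decoy 5 or Decoy 6.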

How the results depend on the processing

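The 187 calls in members became 445 by DESeq2, 13 by voom, 317 with no filter, 294 with 10 UMIs in every library, 0 with free RNA subtracted (edgeR, 1112 at an unadjusted p under 0.05), and 2 to 474 with 1 Decoy library left out. The estimate of free RNA reached 100% in PBS and Decoy 2, so that setting could not be used as a correction. Alternatives chosen after seeing the data gave 33 calls without members carrying UMIs of other cells, 83 without the 3 deepest PBS members, 80 in Saa3-low members and 3174 with each member weighted equally. The 18 calls for a different Decoy effect became 11 with RLE scaling, 82 by DESeq2, 149 with no filter, 72 at a mitochondrial limit of 5%, 38 without high doublet scores, 29 with C1q at 20 per 10000, and 5 to 103 with 1 Decoy library left out; at least 5000 UMIs was not run, as too few PBS red pulp type cells were left. Of 42 named calls, 42 were kept with no filter and without Decoy 2, 40 by DESeq2 and 40 with RLE scaling, 22 without the 3 deepest PBS members, 8 by voom, 8 without members carrying UMIs of other cells and 2 without Decoy 3.

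Log2 fold changes turned as follows, and the cause was not tested. At a mitochondrial limit of 5% the values were 0.15 for Fcgr4, -0.36 for Socs3, -1.05 for Tlr9, 0.043 for Cd74 and 0.036 for H2-Aa. Without high doublet scores they were -0.39 for Tlr9, 0.72 for Apoe, 4.47 for Plac8, 1.65 for Cxcl9, 0.33 for Cd74, 0.15 for H2-Aa and 0.71 for Cebpb. Plac8, not called in all members, was called higher by edgeR in this setting, which left 22 PBS members. With free RNA subtracted they were -0.17 for Socs3, -0.021 for Irf8, -0.20 for Tlr9, -0.23 for Nr4a1 and 8.09 for Dnmt1. Without members carrying UMIs of other cells they were 0.22 for Fcgr4, 0.025 for Clec4a3, -0.0065 for Socs3, -0.53 for Nr4a1, -0.18 for Fcgr2b, -0.20 for Mcl1, 0.43 for Stmn1, -0.24 for Hdac1 and 0.075 for Hsp90aa1. Without the 3 deepest PBS members they were -0.083 for Stat3, -0.20 for Nr4a1, -0.082 for Cx3cr1, 0.26 for Plac8, -0.022 for Mcl1, 0.21 for Cdk1 and 0.13 for Hsp90aa1. In Saa3-low members they were 0.18 for Fcgr4, 0.46 for Apoe, 0.10 for Cd74 and -0.043 for Hdac1. With equal weights they were -0.11 for Stat3, 0.50 for Plac8, 0.13 for Cebpb and -0.80 for Hdac1. Hdac1, not called in all members by edgeR, was called lower by limma in this setting. Tlr9 had -0.0059 with RLE scaling and -0.65 by voom. With 1 Decoy library left out, Tlr9 ranged from -0.10 to 0.16, Plac8 from -0.40 to 0.011 and Cxcl9 from -0.94 to 0.028.

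The 466806 UMIs of the PBS members limit genes of low level, and 1 PBS library limits every comparison. No paired analysis was possible because PBS shares fewer than 2 replicate numbers with Decoy.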
